A study of Mus musculus with 5 samples.

Results

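The Clec genes other than Clec10a were examined in dendritic cells that carry or lack Etv3, a gene for a transcription factor of the ETS family. Members were all gene symbols that begin with Clec and a digit, without Clec10a, which gave 33 of the 27678 symbols in the table. Of these, 25 had reads in at least 1 library, 8 were at 0 in every library, and 18 had 10 or more normalized counts in at least 2 libraries and were tested. A normalized count is a gene's read count divided by a factor for its library. The groups were 2 libraries from Etv3+/+ mice and 3 from Etv3-/- mice. In both, marrow cells were cultured over 6 days in GM-CSF (20 ng/ml) plus IL-4 (5 ng/ml), and single cells with CD11c, intermediate CD11b, high MHC class II and no CD115 were sorted to over 95% purity. The mouse strain, age and sex, the part of Etv3 that was disrupted and whether replicates came from separate animals are not stated in the labels. The p-values therefore measure the spread between these libraries, which may be technical.

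C-type lectin receptors carry a lectin-like fold that binds sugars, lipids or proteins on microbes, dying cells or neighbouring cells. Some signal through a tyrosine motif of their own or through the adaptor FcRgamma to the kinase SYK and the scaffold CARD9, and others carry an inhibitory motif that recruits phosphatases. On dendritic cells and macrophages they are known for the recognition of fungi and mycobacteria, antigen uptake and restraint of inflammation.

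Because the deleted factor belongs to a family known to bind a GGAA core, the promoters of the members with the most reads, Clec7a and Clec2i, and of Clec2l, the member with lower values in every Etv3-/- library, are shown with that core marked. RefSeq (GRCm38.p6) gave a promoter for 26 of the 33 members, and Clec4n was not among those matched. Each run is the 250 bases before the start, from chr6:129472780-129473029 on the minus strand for Clec7a, chr6:128887337-128887586 on the plus strand for Clec2i and chr6:38662819-38663068 on the plus strand for Clec2l. Capitals mark GGAA or its other-strand form TTCC.
Clec7a: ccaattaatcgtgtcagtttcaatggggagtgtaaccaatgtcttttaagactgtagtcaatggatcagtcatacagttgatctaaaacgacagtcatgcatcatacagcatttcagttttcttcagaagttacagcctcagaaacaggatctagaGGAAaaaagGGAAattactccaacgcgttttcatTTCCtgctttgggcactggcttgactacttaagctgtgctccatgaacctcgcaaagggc
Clec2i: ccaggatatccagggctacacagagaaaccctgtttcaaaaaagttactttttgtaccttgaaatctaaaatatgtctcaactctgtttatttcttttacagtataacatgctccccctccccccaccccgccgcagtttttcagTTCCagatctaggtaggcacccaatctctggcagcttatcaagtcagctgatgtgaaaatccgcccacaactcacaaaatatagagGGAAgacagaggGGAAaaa
Clec2l: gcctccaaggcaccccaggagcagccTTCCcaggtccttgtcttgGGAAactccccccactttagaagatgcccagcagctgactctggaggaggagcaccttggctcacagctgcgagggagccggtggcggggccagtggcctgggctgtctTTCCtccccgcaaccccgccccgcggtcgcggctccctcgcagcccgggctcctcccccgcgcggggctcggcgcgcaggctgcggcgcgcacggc
Each of the 3 runs held 3 matches, the median over all promoters. The core was present in 26 of 26 member promoters and in 93.4% of 27025 promoters of the same length. The longer ETS form CGGAAG, or CTTCCG on the other strand, was in 0 of 26 member promoters and in 13.8% of all promoters. A myeloid ETS form, GAGGAAGT or ACTTCCTC, was in 0 of 26 and in 2.44% of all promoters. Both longer forms contain the core. These shares used the first listed start of each gene and were not matched for GC content, so they do not show a lack particular to the members. The Clec2l run had a GC content of 72.4%, against 42.0% for Clec7a and 43.6% for Clec2i.

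No member passed the test between genotypes. With limma, 0 of 18 tested members were higher and 0 lower at an adjusted p under 0.05, where 1.19% of all 13813 tested genes passed. At an unadjusted p under 0.05 there were 2 members, Clec4n and Clec2l, where 18.0% of all tested genes were under that value. The same 2 members were those whose genotypes did not overlap, 1 higher and 1 lower in Etv3-/-, where 36.0% of all tested genes did not overlap. edgeR on the recovered reads also called 0 of 18, with 1 at an unadjusted p under 0.05. DESeq2 called 1, Clec4n, where it called 8.60% of all tested genes and 4.66% as higher.

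Most of the members' normalized counts came from 2 genes, except in Etv3-/- replicate 3. Per kilobase of exon, Clec2i had a mean of 2922 normalized counts in Etv3+/+ and 2148 in Etv3-/-, and Clec7a had 2840 and 2199. Together these genes took 60.6 to 63.7% of the members' summed normalized counts in 4 libraries and 41.5% in Etv3-/- replicate 3. Clec4n and Clec4a3 followed in Etv3+/+, at 828 and 790 per kilobase. Clec5a, Clec16a, Clec2d, Clec4b1 and Clec4e had 204 to 365 per kilobase in Etv3+/+, and Clec4a2, Clec2f, Clec2l, Clec12a, Clec4d and Clec4a1 had 42.5 to 183. The whole group made up 0.0322 to 0.0518% of all normalized counts.

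**Figure D1:**
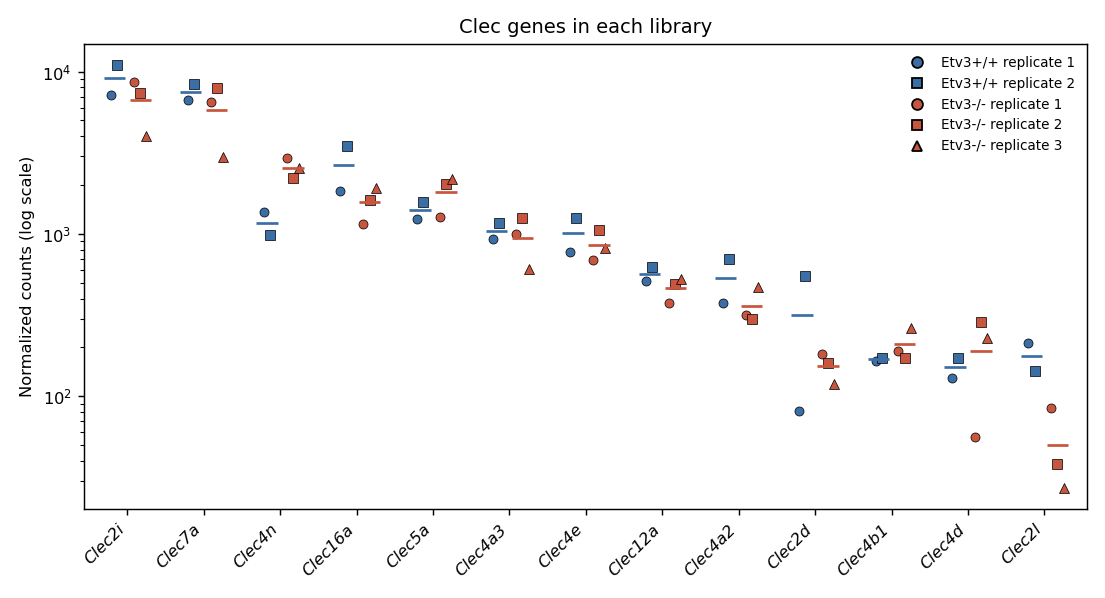
Normalized counts (log axis) of the 13 members named by rule, by library. Points are libraries, with the genotype as colour and the replicate number as shape, and lines are group means. The genotypes are apart for Clec4n, with higher Etv3-/- values, and for Clec2l, with lower ones, and they overlap for the other 11.

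Among genes of the Dectin-2 and DCIR cluster, Clec4n had the highest mean level. It encodes Dectin-2, a receptor for fungal mannans that signals through FcRgamma. The gene lies at 123229843 to 123247021 on the plus strand of chromosome 6 (GRCm38). Clec4n had 1373 and 978 normalized counts in Etv3+/+ against 2950, 2199 and 2543 in Etv3-/-. Every Etv3-/- library lay above both Etv3+/+ libraries, with means of 1176 ± 279 (SD, n = 2) and 2564 ± 376 (SD, n = 3). The log2 fold change was 1.13 (SE 0.27, 95% interval 0.52 to 1.75) and did not pass with limma (adjusted p = 0.0957). By exact permutation of the libraries, two-sided, p was 0.1, which is the smallest possible for 2 against 3. Omission of each library in turn gave 0.89 to 1.38, the lowest without Etv3+/+ replicate 2 (limma adjusted p = 0.302). DESeq2 gave 1.16 (adjusted p = 0.00266). Per kilobase of exon, the Clec4n level was 0.384 and 0.218 times that of Clec7a in Etv3+/+ and 0.840, 0.519 and 1.58 times in Etv3-/- replicates 1, 2 and 3. The ratio's groups did not overlap, but neither did those of Clec4n itself, so this is no further support. The ratio's highest value came from the library with the lowest Clec7a. Per kilobase, the ratio of Clec4n to Clec4d overlapped, at 11.9 and 6.44 in Etv3+/+ and 59.4, 8.70 and 12.5 in Etv3-/-. The ratio to Clec4e did not overlap. Clec10a, a galactose-type lectin receptor gene on another chromosome, had 129 per kilobase in Etv3+/+ and 1695 in Etv3-/-, beside 828 and 1806 for Clec4n.

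The neighbours of Clec4n did not share its separation. Clec4e encodes Mincle, which binds mycobacterial glycolipid, and had 777 and 1249 normalized counts in Etv3+/+ and 689, 1061 and 818 in Etv3-/-. Clec4d encodes MCL, a partner of Mincle, and had 130 and 171 in Etv3+/+ and 55.9, 285 and 229 in Etv3-/-. Both sets of values overlapped between genotypes. The log2 fold change was -0.22 (95% interval -1.03 to 0.58) for Clec4e and 0.05 (-1.76 to 1.87) for Clec4d. The direction of Clec4d turned without Etv3+/+ replicate 1, at -0.15, and without Etv3-/- replicate 2 or 3, at -0.39 and -0.23, and that of Clec4e turned without Etv3+/+ replicate 2, at 0.12.

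The DCIR and DCAR genes of this cluster also overlapped between genotypes. Clec4a2 encodes DCIR, an inhibitory receptor that binds phosphatases, and had 373 and 697 normalized counts in Etv3+/+ and 316, 297 and 472 in Etv3-/-. Clec4a3, a relative of DCIR, had 929 and 1167 in Etv3+/+ and 993, 1246 and 609 in Etv3-/-. Etv3-/- replicate 3 was the lowest library for Clec4a3, and without it the log2 fold change went from -0.19 to 0.09. Clec4b1, for an activating DCAR receptor, had 165 and 173 in Etv3+/+ and 190, 172 and 263 in Etv3-/-, so that 1 Etv3-/- library fell between the Etv3+/+ libraries. Clec4a1 had group means of 66.1 and 105 normalized counts. Of all 7 tested genes of the cluster, 4 had a log2 fold change above 0 and 3 below, with 0 called. Transcripts of Clec4a4 share 15.7% of their 50-base words with Clec4a2, and those of Clec4b1 share 8.69% with Clec4a2, so reads there are uncertain. The share was 0.686% for Clec4n, and 0 for Clec4d and Clec4e.

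In the Dectin-1 cluster, Clec7a was the one abundant gene. It encodes Dectin-1, the receptor for fungal beta-glucan that signals through its own tyrosine motif and SYK (chromosome 6, 129461591 to 129472779, minus strand). Clec7a had 6642 and 8339 normalized counts in Etv3+/+ and 6529, 7878 and 2999 in Etv3-/-. The values of Etv3-/- replicates 1 and 2 lay near those of Etv3+/+, and replicate 3 was below all others. Its log2 fold change of -0.47 had a 95% interval of -1.39 to 0.45 (limma adjusted p = 0.562), and the value was -0.05 without Etv3-/- replicate 3. Clec12a encodes MICL, an inhibitory receptor for uric acid crystals, and had 512 and 627 in Etv3+/+ and 378, 489 and 526 in Etv3-/-. Its genotypes overlapped, with a log2 fold change of -0.30 (-1.13 to 0.53). Clec1a, which encodes a melanin receptor, had 63.4 and 0 in Etv3+/+ and 23.7, 43.3 and 14.0 in Etv3-/-, a spread within Etv3+/+ that covers all 3 Etv3-/- values. Its mean was 31.7 in Etv3+/+ and 27.0 in Etv3-/-, yet its log2 fold change was 1.66, since a library at 0 weighs more on the log scale.

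The remaining genes of this cluster had few reads or none. Clec9a, which encodes DNGR-1, the receptor for actin of dead cells on type 1 conventional dendritic cells, had 2 reads in Etv3-/- replicate 3 and 0 in the other libraries. Clec1b, the gene of the platelet receptor CLEC-2, had 5 reads in Etv3+/+ replicate 2, and 9 and 2 in Etv3-/- replicates 1 and 3. Clec12b had 0 in all. The exons of Clec1b and Clec9a overlap over 184 bases on the same strand, so reads in that stretch cannot be given to one of them. Of the other type 1 markers, Xcr1 was at 0 to 20.5, Cadm1 at 0 to 13.7, Tlr3 at 0 to 36.8 and Itgae at 93.2 to 353 normalized counts. Batf3 was at 5114 to 7787 and Irf8 at 82795 to 124610, the latter lower in Etv3-/- without overlap (limma adjusted p = 0.505).

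The Clr genes encode surface ligands of the NKR-P1 receptors of natural killer cells, which restrain or trigger killing. Clec2i, which encodes Clr-g, had 7206 and 10965 normalized counts in Etv3+/+ and 8642, 7416 and 3986 in Etv3-/-. As with Clec7a, Etv3-/- replicate 3 was lowest and the other libraries overlapped. Its log2 fold change of -0.49 had a 95% interval of -1.31 to 0.34 (limma adjusted p = 0.507). Clec2d encodes Clr-b and had 81.1 and 551 in Etv3+/+ and 182, 161 and 118 in Etv3-/-. Both the highest and the lowest library for Clec2d were Etv3+/+, and without Etv3+/+ replicate 2 the log2 fold change went from -0.48 to 0.89. Clec2f, a pseudogene in GENCODE M21, had 82.9 and 83.9 in Etv3+/+ and 79.6, 116 and 15.8 in Etv3-/-. That annotation also labels Clec2j as an unprocessed pseudogene and Clec7a as a polymorphic pseudogene.

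Clec2l, a brain-associated relative of the Clr genes that lies apart from them on chromosome 6 (38663069 to 38680864, plus strand), was the member with the lowest fold change. It had 212 and 144 normalized counts in Etv3+/+ and 85.0, 38.4 and 27.2 in Etv3-/-, from 227 and 168 reads and from 79, 31 and 31 reads. Every Etv3-/- library lay below both Etv3+/+ libraries, with means of 178 ± 47.9 (SD, n = 2) and 50.2 ± 30.6 (SD, n = 3). The log2 fold change was -1.94 (SE 0.76, 95% interval -3.71 to -0.17), which did not pass (limma adjusted p = 0.243, two-sided exact permutation p = 0.2). Across the omissions of 1 library it ranged from -2.40 to -1.59.

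Genes for NKR-P1 receptors went both ways between genotypes, and receptors were not tested against ligands. Klrb1b, whose product binds Clr-b, had 0 and 11.1 normalized counts in Etv3+/+ and 291, 239 and 443 in Etv3-/-. It rose 58.3-fold by group means and 90.4-fold by the fit (limma adjusted p = 0.0455), where 0.876% of tested genes rose. Without its Etv3-/- values Klrb1b would not have met the filter for testing, so a fall could not have been found for it. The call was lost in 9 of 18 alternatives, among them the omission of Etv3+/+ replicate 1 (adjusted p = 0.0597) or of Etv3-/- replicate 1 (0.168), 2 (0.128) or 3 (0.167), and edgeR (0.0925). Klrb1f, whose product binds Clr-g, had 0 reads in both Etv3+/+ libraries and 26.9, 111 and 56.1 normalized counts in Etv3-/-. This was at least 48.4-fold higher against a floor of 3 reads over the group, and did not pass (limma adjusted p = 0.0873). Klrb1f met the filter for testing through its Etv3-/- values alone. Klrb1c, which encodes the natural killer marker NK1.1, had 152 and 134 in Etv3+/+ and 17.2, 120 and 39.5 in Etv3-/-, lower without overlap, and did not pass (limma adjusted p = 0.385). Klrb1a and Klrb1 averaged 0.856 and 1.51 over all libraries and were not tested. These receptors are known from natural killer and other lymphoid cells. On the list of 7 T and natural killer cell markers 0 of 6 tested genes passed, 5 were lower in Etv3-/- without overlap (19.3% of all tested genes were), Ncr1 was at 0 in all libraries, and the summed level was 7829 to 7964 in Etv3+/+ and 1180 to 4333 in Etv3-/-. The part of other cells in the Klrb1b and Klrb1f values was not tested. In bulk libraries, fewer cells of a type and less RNA per cell cannot be told apart.

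Of the other membrane receptors, Clec5a encodes MDL-1, a partner of the adaptor DAP12 on myeloid cells. It had 1240 and 1566 normalized counts in Etv3+/+ and 1269, 2026 and 2165 in Etv3-/-, with a log2 fold change of 0.35 (95% interval -0.37 to 1.07, limma adjusted p = 0.591). Etv3-/- replicate 1 lay within the Etv3+/+ range. After the GC and length correction described below the value of Clec5a was 1.04 (limma adjusted p = 0.249). Clec4f, the Kupffer cell receptor gene, had 0 reads in Etv3+/+ and 0, 13 and 14 in Etv3-/-, and met the filter through Etv3-/- values alone. Clec16a is named with the lectins but encodes an endosomal protein that regulates mitophagy. It had 1841 and 3457 in Etv3+/+ and 1157, 1614 and 1929 in Etv3-/-, which overlapped at the lower Etv3+/+ library. The log2 fold change of Clec16a was -0.72 (-1.53 to 0.09, limma adjusted p = 0.336), and -0.26 without Etv3+/+ replicate 2. Clec11a, a secreted growth factor gene, had group means of 39.5 and 31.0.

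The 8 members at 0 in all libraries were Clec12b, Clec14a, Clec2e, Clec2h, Clec2j, Clec2m, Clec3a and Clec4g. A count of 0 allows a group mean of up to 1.34 normalized counts in Etv3+/+ and 1.04 in Etv3-/-, by counting error alone. A further 7 had reads but were not tested. Of these, 6 had 0 reads in both Etv3+/+ libraries and reads in 1 or 2 Etv3-/- libraries. The share of all untested genes with that pattern was not counted, and there were 3 Etv3-/- against 2 Etv3+/+ libraries. Clec4a4, for DCIR2 of type 2 conventional dendritic cells, had 54, 0 and 10 reads in Etv3-/- and Clec4b2 had 0, 37 and 1, so that most reads of each came from a single library. Clec3b had 13 reads in all, Clec18a 3, and Clec2g and Clec9a 2 each. The number of members above 0 was 17 in each Etv3+/+ library and 20, 20 and 25 in the Etv3-/- libraries. Over all genes it was 14225 and 15023 in Etv3+/+ and 14631, 14576 and 15029 in Etv3-/-, which overlapped.

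Across the 18 tested members, 7 log2 fold changes were above 0 and 11 below, with a median of -0.25, beside -0.06 over all tested genes. The 95% interval excluded a 2-fold rise for 8 members and a 2-fold fall for 3. It excluded 2-fold changes both ways for 0 members, where it did so for 28.9% of all tested genes, and 4-fold changes both ways for 11. The part of base composition in the split of directions was not tested on its own. The tested members had a median GC content of 42.9%, against 49.7% for all tested genes, and deviations from the group mean correlated with GC content across genes at Spearman rho 0.40 and -0.40 for the Etv3+/+ libraries, which mirror each other with n = 2, and -0.10, -0.31 and 0.36 for Etv3-/- replicates 1, 2 and 3. Genes are not independent replicates. Etv3-/- replicate 3 was the lowest library for 6 of 18 members and Etv3+/+ replicate 2 the highest for 8. After a correction for GC content and transcript length together, 13 members were above 0 and 5 below, with a median of 0.24. The direction of Clec2i, Clec7a, Clec12a, Clec4a2, Clec4a3 and Clec4e turned. Clec4n kept a value of 1.25 and Clec2l of -2.01, and again 0 members passed.

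**Figure D2:**
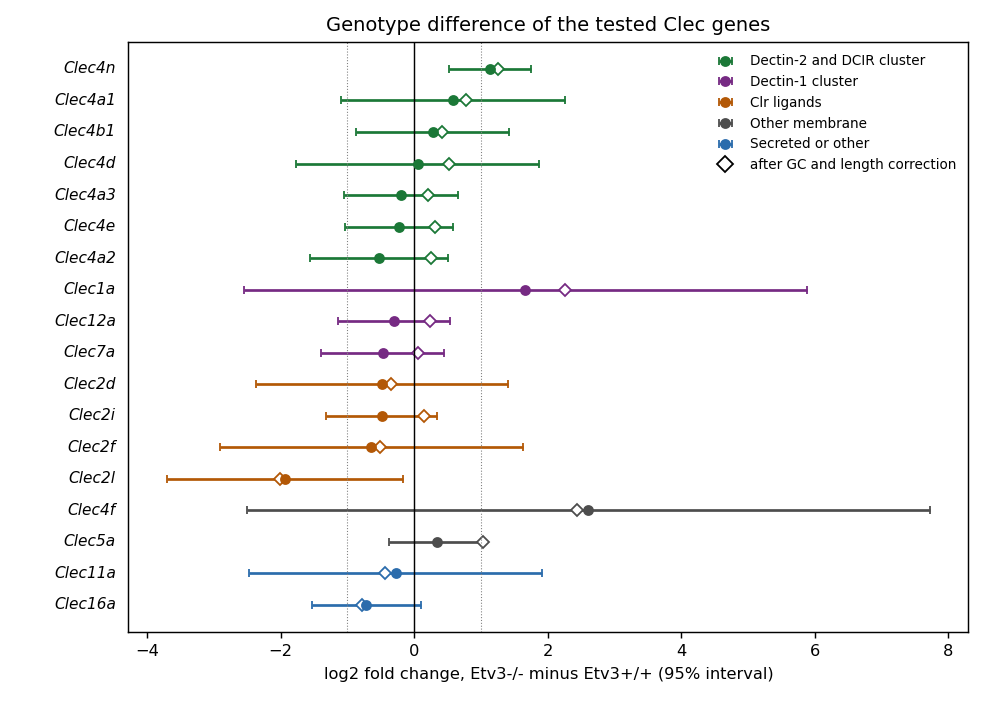
log2 fold change (Etv3-/- minus Etv3+/+) of the 18 tested members by role, with filled points and bars for the limma estimate and its 95% interval and open diamonds for the value after the GC and length correction. Dotted lines mark 2-fold. The intervals of Clec4n and Clec2l leave out 0, and diamonds lie to the right of 0 for 13 members.

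The members are clustered in the genome. GENCODE M21 matched 32 of 33, of which 25 are on chromosome 6, 16 of them tested. The Dectin-2 and DCIR genes span 368 kb from Clec4a1 to Clec4e, and 5.36 Mb further along the Clr and Dectin-1 genes other than Clec2l span 820.4 kb from Clec2j to Clec7a. Clec4n is 15.1 kb from Clec4d and 25.2 kb from Clec4b2. The fold change of Clec4n was thus flanked by 0.05 for Clec4d on one side, with Clec4b2 untested on the other. In the second span BC035044, a lectin-like gene whose span overlaps that of Clec2i on the opposite strand, rose (7.84-fold by the fit), from 440 and 793 normalized counts in Etv3+/+ to 4651, 5349 and 4015 in Etv3-/- (limma adjusted p = 0.0110). That call was lost without Etv3-/- replicate 1 (adjusted p = 0.0928), 2 (0.0765) or 3 (0.0693). The exons of BC035044 and Clec2i share 0 bases in that annotation, and the values of Clec2i, as above, overlapped.

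**Figure D3:**
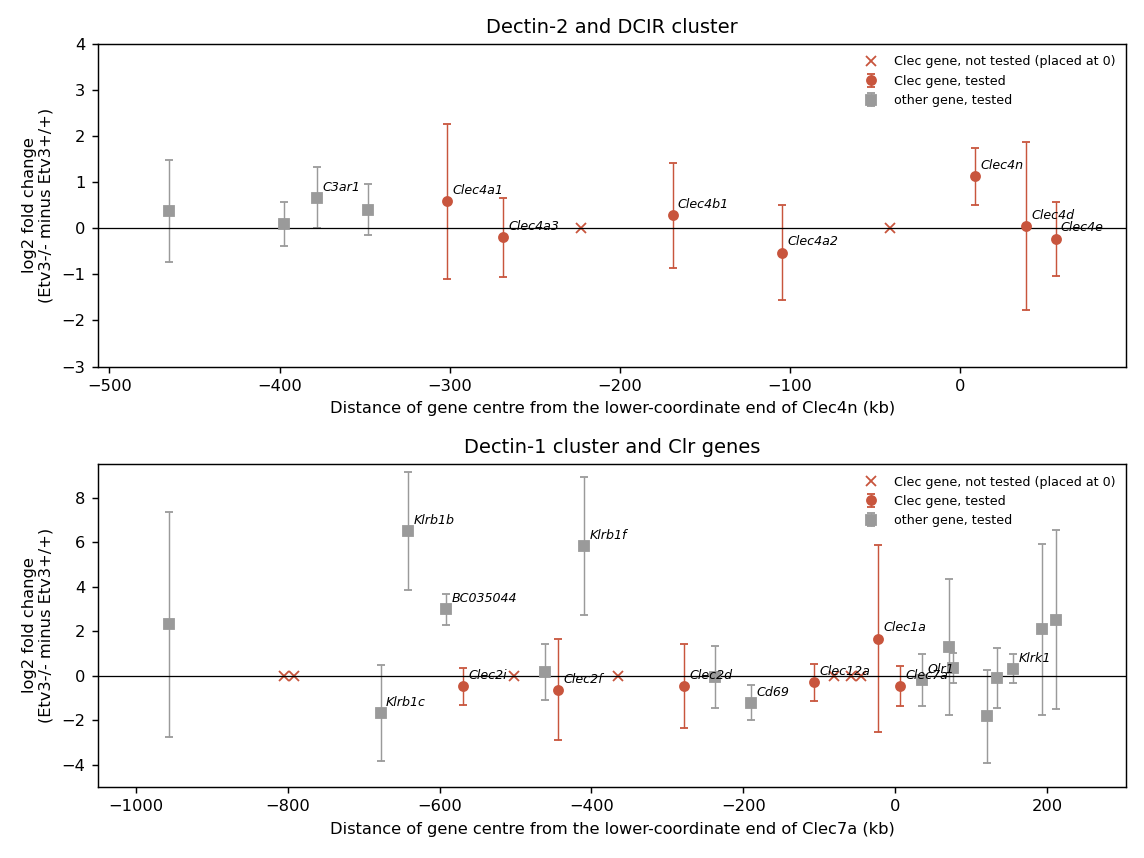
log2 fold change (Etv3-/- minus Etv3+/+, with 95% interval) against distance along chromosome 6 in kb from Clec4n (upper panel) or Clec7a (lower panel). Red points are tested members, crosses members without a test, grey squares other tested genes. Clec4n stands at 1.13 and the other members of the upper panel between -0.53 and 0.58. Klrb1b, Klrb1f and BC035044 stand highest in the lower panel, where Klrc1, Pzp and Klrc2, which did not pass, also lie above the members.

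Genes that carry the signal of these receptors were examined as a list of 36, all of them tested. With limma 3 rose and 0 fell, where 0.876% of tested genes rose and 0.319% fell, and the median log2 fold change was 0.31, beside -0.06 over all tested genes. The 3 were Fgr, Plcg2 and Lyn. Fgr encodes a SRC family kinase of myeloid cells and had 1026 and 551 normalized counts in Etv3+/+ and 3084, 4539 and 5436 in Etv3-/- (5.63-fold, adjusted p = 0.0263). Plcg2 encodes the phospholipase that acts below SYK and had 3236 and 2607 in Etv3+/+ and 6398, 6468 and 8259 in Etv3-/- (2.41-fold, adjusted p = 0.0455). Lyn encodes a kinase with activating and inhibitory roles and had 3042 and 2341 in Etv3+/+ and 6713, 6601 and 5714 in Etv3-/- (2.37-fold, adjusted p = 0.0442). All 3 genes were separated by genotype. The 3 rises became 1 without Etv3+/+ replicate 1 and 0 without any other library, 1 without a filter on low values or with sample weights, 0 with trend=FALSE, 2 with edgeR, 13 with DESeq2 and 5 with the GC and length correction. The lower count of 0 became 4 with DESeq2, 1 with the replicate block or with the GC and length correction, and 2 with both.

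Fcer1g, the gene of the FcRgamma adaptor with which Dectin-2 and Mincle signal, had 8692 and 9153 normalized counts in Etv3+/+ and 19759, 15649 and 20892 in Etv3-/-. Its groups did not overlap, and the log2 fold change of 1.06 did not pass (limma adjusted p = 0.0635). It did pass with quantile normalization (adjusted p = 0.0426), the GC and length correction (0.0445) and DESeq2 (6.16e-05). Card9 had 708 and 1033 in Etv3+/+ and 1530, 1513 and 1883 in Etv3-/- (log2 fold change 0.93, limma adjusted p = 0.164). Syk itself had 32880 and 28838 in Etv3+/+ and 27230, 32576 and 31615 in Etv3-/-, which overlapped, with a log2 fold change of -0.02. On the inhibitory side, Inpp5d, the gene of the lipid phosphatase SHIP1, had a log2 fold change of 1.01 (limma adjusted p = 0.0694), and Ptpn6, the gene of SHP-1, of 0.99 (0.154). Cblb, a ubiquitin ligase gene that limits Dectin signalling, had 7832 and 10580 in Etv3+/+ and 4315, 4593 and 4068 in Etv3-/- (log2 fold change -1.08, limma adjusted p = 0.0640). In all, 19 of the 36 genes had higher and 5 lower Etv3-/- values without overlap, where the shares of all tested genes were 16.7% and 19.3%.

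**Figure D4:**
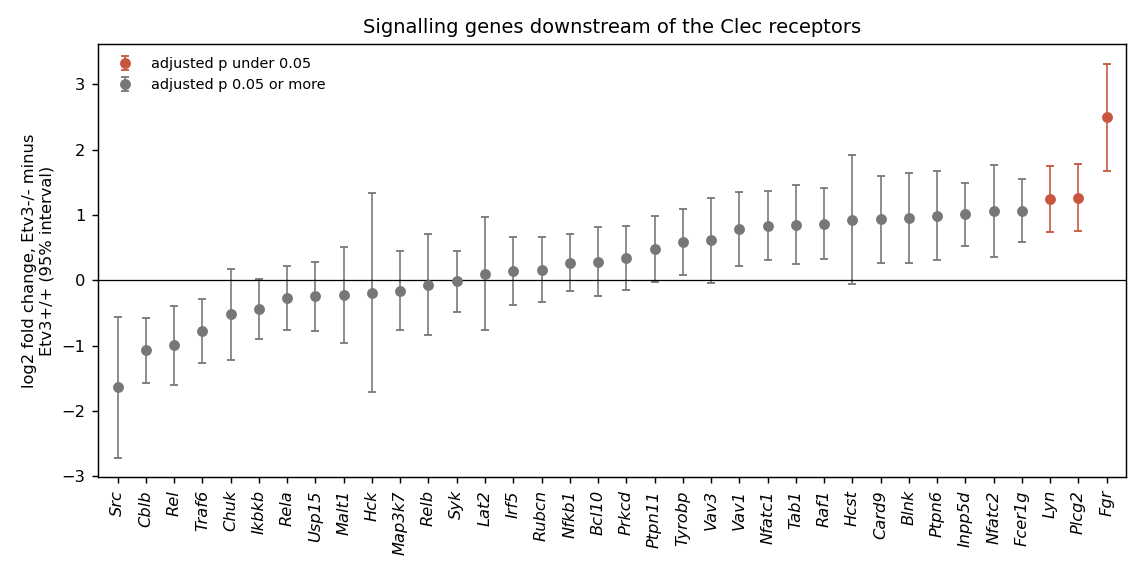
log2 fold change (Etv3-/- minus Etv3+/+) of the 36 signalling genes with limma's 95% interval, in order of size. Red points passed at an adjusted p under 0.05. Fgr, Plcg2 and Lyn are red at the upper end, and Src and Cblb stand lowest.

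Clec4n and several of these genes are also expressed by macrophages and monocytes, which the selection of CD115- cells is meant to leave out. On a list of 14 of their markers, C1qa, C1qb and C1qc rose and 0 fell of 13 tested, where 0.876% of tested genes rose and 0.319% fell. Of the 13, 9 were higher in Etv3-/- without overlap and 0 lower, where 16.7% and 19.3% of all tested genes were. The median log2 fold change of the list was 1.48, with 11 above 0 and 2 below. Csf1r, the gene of CD115, had 1018 and 1348 normalized counts in Etv3+/+ and 3493, 2402 and 2889 in Etv3-/-, and did not pass (limma adjusted p = 0.0683). The monocyte markers Ly6c2 and Ccr2 had log2 fold changes of -0.64 and -0.21 and did not pass either. The summed level of the list was 33405 to 34078 in Etv3+/+ and 55128 to 72139 in Etv3-/-, most of it from Lyz2, which did not pass (limma adjusted p = 0.196). Vsig4 was at 0 in all libraries, and Fcgr1 and Cd163 were at 0 in both Etv3+/+ libraries. Fcgr1 and Cd163 met the filter for testing through Etv3-/- values alone, so a fall could not have been found for them. Both are among the 13 tested markers and count in their median. The part of such cells in the Clec4n and signalling values was not tested.

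Dendritic cell markers were present in every library, with Itgax at 9808 to 16076, Zbtb46 at 9852 to 12295 and Flt3 at 2952 to 4431 normalized counts. Of 9 such markers Ciita rose and 0 fell, against the shares of 0.876% and 0.319% over all tested genes. Their summed level, mostly of MHC class II genes and Cd74, was 1093800 to 1504600 in Etv3+/+ and 2167600 to 2890600 in Etv3-/-, and 5 of the 9 were higher without overlap, where 16.7% of all tested genes were. Mgl2 and Clec10a rose among 5 tested type 2 markers. Ccr9 rose among 4 tested plasmacytoid markers, from 0 in both Etv3+/+ libraries to 106, 199 and 99.1 (limma adjusted p = 0.0334), while Siglech was at 0 in all. Ccr9 met the filter for testing through its Etv3-/- values alone, so a fall could not have been found for it. Of 7 B cell markers 0 passed and 4 were higher without overlap, with sums of 1682 to 2235 in Etv3+/+ and 3386 to 5240 in Etv3-/-. Among 11 neutrophil, 6 basophil and mast cell and 5 platelet markers 0 passed. The neutrophil markers summed to 47287 to 53219 in Etv3+/+ and to 12903 to 73001 in Etv3-/-, a wide spread within Etv3-/-. Of these 11 genes, 9 had a log2 fold change below 0 and 2 above, and 0 were without overlap. The part of such cells in the Clec values was not tested. Recovered depth was 42983550 to 68253936 reads per library. Etv3 itself had 23050 and 25447 normalized counts in Etv3+/+ and 18691, 20416 and 22856 in Etv3-/- (log2 fold change -0.23, limma adjusted p = 0.567). Without the disrupted part known, that gene-level total does not check the genotype, and directions are as labelled.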

How the data were processed

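The authors deposited 1 table of normalized counts, a signal made from read counts by division with 1 factor per library. The submitters' processing notes name Trimmomatic 0.36, STAR 2.7.3a, featureCounts, Subread 1.6.3, DESeq2 1.26.0 and mm10. Their roles, the annotation and the strand setting are not stated there. Libraries came from up to 60000 sorted cells by a SMART-Seq method for low input (per the labels' protocols), so PCR copies count as reads and floors cover counting error only.

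Low values were whole multiples of 1 step per library, 0.856 to 1.24 normalized counts per read, and 100% of values came within 0.1 of whole reads. Genes with 10 or more normalized counts in at least 2 libraries (13813) were fitted with limma 3.58.1 (lmFit, eBayes with trend, R 4.3.3) on log2(normalized count + 1), genotype as single term, Benjamini-Hochberg over all tested genes, threshold 0.05. Fold changes are differences of mean log values, so for low genes, most of all with a library at 0, they can lie on either side of the ratio of group means. Alternatives were pseudocounts of 0.5 and 5, other filters and scalings, limma without trend, sample weights, recovered reads in edgeR 4.0.16 or in DESeq2 1.42.0, the replicate block, a local regression on GC content and transcript length (span 0.3, values for 98.5% of tested genes) and omission of each library. For the signalling list, its named genes, Klrb1b and BC035044 they were chosen after seeing the data. The fit was tested on simulated data.

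Members were matched by symbol to GENCODE M21 (GRCm38, the assembly of mm10). Lengths are unions of exons. Named with all values were members past the threshold, those whose genotypes did not overlap and the 12 with the highest means. Clec1a, Clec2f, Clec9a and other low members were named in addition, and Klrb1f, Klrb1c, Klrb1a, Klrb1, BC035044, Csf1r, Fcer1g, Card9, Syk, Inpp5d, Ptpn6 and Cblb after their values were seen. Members and lists were chosen with earlier results of these data known. Figures were drawn with matplotlib 3.10.9.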

Additional observations from a re-analysis of the deposited data

How the results depend on the processing

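The counts of 0 members higher and 0 lower held in 16 and 18 of 18 alternatives. The exceptions were DESeq2 and the replicate block with the GC and length correction, each with 1 member higher, Clec4n (adjusted p = 0.00266 and 0.0363). Over all tested genes, 121 were higher and 44 lower. trend=FALSE gave 44 higher, DESeq2 gave 644 and 544, the GC and length correction 221 and 93, the replicate block 118 lower, that block with the correction 272 and 194, and a pseudocount of 5 gave 70 lower. The cause was not tested. Omission of 1 library gave 0 to 73 higher and 0 to 7 lower, and the part of sample number in this was not tested. Without Etv3-/- replicate 1 the counts were 0 and 0, with 1885 genes at an unadjusted p under 0.05. An omission of an Etv3+/+ library leaves 1, assumed to vary like the others.

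Directions turned in 18 of 234 values of the 13 named members, all in genes that did not pass. With the GC and length correction Clec2i was at 0.14, Clec7a 0.054, Clec4a3 0.21, Clec4e 0.32, Clec12a 0.23 and Clec4a2 0.25. With the replicate block and that correction Clec2i was at 0.19, Clec7a 0.25, Clec4a3 0.32 and Clec4e 0.14. With the replicate block Clec4a3 was at 0.095 and Clec4d at -0.23. Across single omissions Clec4a3 ranged from -0.42 to 0.095, Clec4e from -0.57 to 0.12, Clec2d from -1.86 to 0.89 and Clec4d from -0.39 to 0.77. Replicate number 3 occurs in Etv3-/- alone, so the block's genotype difference rests on replicates 1 and 2. The correlation of deviations from the group mean between libraries of one number was -0.03 and 0.04. The labels do not say that a number pairs libraries.

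Clec11a, Clec1a, Clec2f, Clec4a1 and Clec4f rested on 0 to 142 reads per library. In these fits of 2 against 3 libraries, the 95% interval reached past 2-fold on at least 1 side for each of the 18 tested members. It excluded 2-fold changes both ways for 28.9% of all tested genes. The median SE was 0.47 for the tested members and 0.37 for all tested genes.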

Other observations

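Receptors with a related lectin fold and other names were examined as a list of 29, of which 20 were tested. Klrb1b rose and 0 fell with limma, where 0.876% of all tested genes rose and 0.319% fell. The median log2 fold change was 0.26, beside -0.06 over all tested genes. Klrb1f, Klrg1 and Cd209a, at 0 in both Etv3+/+ libraries, met the filter through Etv3-/- values alone. Klrb1b would not have met it without such values either. A fall could not have been found for any of these genes, and they count in that median. Ly75, which encodes the antigen uptake receptor DEC-205, was the most abundant, at 10052 to 18305 normalized counts with overlap between genotypes. Cd302 had 2859 and 4032 in Etv3+/+ and 4189, 6135 and 6225 in Etv3-/-, and Cd72, an inhibitory co-receptor gene, had 1368 and 1088 in Etv3+/+ and 2358, 2166 and 2660 in Etv3-/-. Neither passed (limma adjusted p = 0.244 and 0.113). Cd69, an early activation marker, had 5096 and 6946 in Etv3+/+ and 3184, 3147 and 1624 in Etv3-/- (log2 fold change -1.23, limma adjusted p = 0.129). Cd207, Cd209b, Cd209f, Cd209g and Pla2r1 were at 0 in all libraries.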
